A study of Mus musculus with 16 samples.

Results

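The genes described here are 9 members of the MHC class I antigen presentation pathway, out of 30389 genes counted in the cortex of THY-Tau22 and WT mice. They are H2-D1 and H2-K1 (classical heavy chains), B2m (the light chain shared by all class I molecules), H2-T23 (a non-classical heavy chain), Tap1, Tap2 and Tapbp (peptide transport and loading), and Psmb8 and Psmb9 (immunoproteasome subunits). All 9 were found by symbol in the count tables. The group was selected on measured values of these same libraries, namely the difference in H2-D1 between THY-Tau22 and WT males in microglia-like cells. That contrast is therefore given for every member as a description, with no test. B2m in microglial and endothelial cells was also among the genes that the study listed from these mice, so its values there are not independent evidence of a direction.

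MHC class I molecules show peptides from inside the cell to CD8 T cells and natural killer cells. Cytosolic proteins are cut by the proteasome, whose immune form carries Psmb8 and Psmb9 in place of constitutive subunits, and the Tap1-Tap2 transporter moves the peptides into the endoplasmic reticulum. There tapasin, the product of Tapbp, holds the transporter close to the heavy chain while a peptide is loaded, and the heavy chain leaves for the cell surface only together with the B2m protein. Interferons raise the transcription of most of these genes. In the brain, endothelial cells and microglia are known as the main sites of class I expression, and neurons as cells with little of it.

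The mice were 17 months old. THY-Tau22 mice are heterozygous for a mutant human tau transgene driven in neurons by a Thy1.2 promoter, and the WT mice were littermates without it, all on a line crossed to C57Bl6/J. Cells dissociated from the neocortex were profiled by Drop-seq, which marks each transcript by its cell and by a molecular tag (a unique molecular identifier, UMI), with 1 library per mouse. The labels gave 4 males of each genotype and, among females, 3 WT and 5 THY-Tau22 mice. One library had been deposited under both male genotypes: 2952 of the 3000 barcodes in the table of WT male replicate 3 were also in that of replicate 4 of the THY-Tau22 males, whereas 3 to 12 were common to any other pair. Both tables were kept out of every comparison, which left 14 libraries, with 3 males of each genotype and the females as labelled. The same animal number appeared in the titles of a WT male and a THY-Tau22 female (replicate 1 of each), and MB22 stood in place of MB21 for WT female replicate 3 and for replicate 5 of the THY-Tau22 females. What these tags mean was not stated. The tables held no row named for the human transgene, so the genotype labels were not checked against it.

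Each table held 3000 barcodes and 1041675 to 2237505 UMIs, and 1121 to 2526 barcodes per library had 200 to 7000 detected genes. Of the 28530 barcodes kept, 7954 were called microglia-like, 5345 astrocyte-like, 4978 oligodendrocyte-like, 3907 endothelial-like, 1456 neuron-like, 1328 oligodendrocyte precursor (OPC)-like, 987 mural-like and 347 macrophage-like. The microglia markers summed to 26169 to 42231 CPM (UMIs of a gene per 1000000 UMIs) in the microglia-like cells of the 14 libraries, and all 12 were detected. The mural-like cluster also carried endothelial markers at 65.2% of the endothelial-like level, and the macrophage-like cluster carried microglia markers at 52.8% of the microglia-like level, so neither was a clean class. Levels below are CPM of the UMIs summed over the cells of a class in 1 library. In such sums more cells with a transcript and more transcripts per cell cannot be told apart, and the shares of cells are therefore given separately.

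In the mouse, 8 of the 9 genes lie on chromosome 17, within and beside the H2 complex, and B2m lies on chromosome 2 (GRCm38, gene spans from GENCODE). H2-K1 (chr17:33996017-34000347, minus strand) and Tapbp (chr17:33915899-33929292, plus strand) lie at one end. Psmb9 (chr17:34181987-34187764, minus strand), Tap1 (chr17:34187553-34197225, plus strand), Psmb8 (chr17:34197721-34201454, plus strand) and Tap2 (chr17:34203527-34216321, plus strand) follow each other in one stretch. Tap1 and Psmb9 are transcribed away from each other, and their RefSeq start sites are 225 bases apart. H2-D1 (chr17:35262730-35267499, plus strand) and H2-T23 (chr17:36029773-36032855, minus strand) lie at the other end, and B2m spans chr2:122147686-122153083 on the plus strand. H2-D1, H2-K1 and B2m are the members that the values below turn on, and the upstream sequence of each is shown because it holds letters shared between them. The sequences are from RefSeq on GRCm38, 5′ to 3′ on the strand of the gene. The H2-D1 stretch is chr17:35262923-35262952, ends 141 bases before the RefSeq start site and lies in an exon of another annotated H2-D1 transcript. The H2-K1 stretch is chr17:34000348-34000472 on the minus strand and runs up to its start site, and the B2m stretch is chr2:122147527-122147676 and ends 10 bases before its start site. Capitals mark the motifs named after the sequences, on either strand.
H2-D1: gGGGATTCCCcatctcctcaGTTTCACTTc
H2-K1: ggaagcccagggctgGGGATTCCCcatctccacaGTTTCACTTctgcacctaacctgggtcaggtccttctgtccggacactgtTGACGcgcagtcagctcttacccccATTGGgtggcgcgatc
B2m: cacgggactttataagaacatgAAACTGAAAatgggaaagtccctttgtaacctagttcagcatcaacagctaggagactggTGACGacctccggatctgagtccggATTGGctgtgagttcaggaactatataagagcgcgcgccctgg

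The capitals spell 5 sets of letters, which were chosen after the sequences had been seen. Read on the other strand, GTTTCACTT holds AANNGAAAC and ATTGG is CCAAT. The first stretch in H2-D1 and H2-K1, GGGATTCCC, is of the kind known to bind NF-kappaB proteins. AANNGAAAC and AAANNGAAA, whose letters can overlap in 1 site, are of the kind known to bind interferon regulatory factors. TGACG and CCAAT are short stretches of the kind found in the X2 and Y boxes of MHC promoters. Over the 300 bases from 250 before to 50 after the start, on both strands, GGGATTCCC occurred in 116 of 32851 mouse promoters (0.353%), AANNGAAAC in 1895 (5.77%), AAANNGAAA in 3466 (10.6%), TGACG in 6837 (20.8%) and CCAAT in 12289 (37.4%). Among the 8 members with a promoter entry (Tap2 had none), GGGATTCCC and AANNGAAAC were found in H2-D1 and H2-K1, and AAANNGAAA in B2m and H2-T23. TGACG was found in H2-D1, H2-K1, B2m, Tap1 and Psmb9, and CCAAT in all but Psmb8. Over 125 aligned bases, H2-D1 and H2-K1 were identical at 112 (89.6%). These matches describe the letters alone.

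Counts of near-identical genes depend on how reads were assigned. Over windows of 60 bases, the read length of the study, in the last 500 bases of the longest transcript, 133 of the 441 windows of H2-T23 (30.2%) occurred in another gene, among them H2-T-ps (45 windows), H2-Bl (14) and, in a transcript of a fellow member, H2-K1 (4), and its values are uncertain for that reason. H2-D1 had 22 such windows (4.99%), with genes outside the H2 family, and the other 7 members had 0. No window was shared between H2-D1 and H2-K1, so their reads can be told apart by sequence there, though how reads were assigned is not given.

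Macrophage-like, microglia-like, endothelial-like and mural-like cells had the highest means of 8 of the 9 genes, the exception being Tap2 in macrophage-like cells (10.4 CPM, below OPC-like cells). B2m averaged 3412 ± 1874 CPM (SD, n = 13) in macrophage-like cells, 2730 ± 1312 (n = 14) in microglia-like cells, 1780.5 ± 931 in endothelial-like cells and 1611 ± 830 in mural-like cells. It averaged 251 ± 124 CPM in OPC-like, 148 ± 103 in astrocyte-like, 119 ± 86.2 in neuron-like and 84.4 ± 58.8 in oligodendrocyte-like cells. Neighbours in each order were compared within libraries by an exact two-sided sign-flip permutation test, adjusted over 63 pairs by the Benjamini-Hochberg method. For B2m the steps from macrophage-like to microglia-like (adjusted p = 0.0319), from microglia-like to endothelial-like (adjusted p = 0.00128, higher in 14 of 14 libraries) and from mural-like to OPC-like (adjusted p = 0.00128) were larger than the spread between libraries. The step from endothelial-like to mural-like was not.

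Of the classical heavy chains, H2-D1 ranked macrophage-like, microglia-like, endothelial-like and mural-like cells in another order than B2m, and H2-K1 in the same order. H2-D1 averaged 1134 ± 747 CPM in macrophage-like, 778 ± 331 in endothelial-like, 645 ± 240 in mural-like and 608 ± 308 in microglia-like cells, and then 110 ± 54.3 in OPC-like, 50.3 ± 31.8 in oligodendrocyte-like, 39.6 ± 25.8 in astrocyte-like and 29.7 ± 45.6 in neuron-like cells. The macrophage-like level lay above the endothelial-like one (exact permutation, adjusted p = 0.00308), the endothelial-like above the mural-like one (adjusted p = 0.0344) and the microglia-like above the OPC-like one (adjusted p = 0.00128), whereas mural-like and microglia-like cells did not differ beyond their spread. H2-K1 averaged 685 ± 330 CPM in macrophage-like, 539 ± 183 in microglia-like, 505 ± 196 in endothelial-like and 402 ± 127 in mural-like cells. Its first 3 classes were not separated from one another, and the step from endothelial-like to mural-like cells was (exact permutation, adjusted p = 0.0490). Astrocyte-like cells came next for H2-K1, at 92.7 ± 30.1 CPM or 17.2% of the microglia-like level, where H2-D1 stood at 6.52% and B2m at 5.43%.

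H2-T23, whose product presents peptides of other class I leader sequences, was highest in endothelial-like cells (80.0 CPM), with 60.2 in microglia-like cells and at most 8.58 in the 4 neural classes. Psmb8 averaged 192 CPM in macrophage-like, 146 ± 28.7 in microglia-like, 97.1 in endothelial-like and 85.1 in mural-like cells, and its microglia-like level exceeded the endothelial-like one (exact permutation, adjusted p = 0.00308). Psmb9 averaged 58.8, 31.4, 34.7 and 26.3 CPM in the same order of classes and had 0 UMIs in astrocyte-like and OPC-like cells, which allows up to 1.00 and 3.70 CPM over the class (a floor of 3 counts, counting error only). The transporter genes were low and spread more widely over the classes. Tap1 averaged 20.6 CPM in endothelial-like and 16.5 in microglia-like cells, and had 0 UMIs in neuron-like cells, which allows up to 2.43 CPM. Tap2 averaged 50.4 CPM in endothelial-like, 30.9 in microglia-like, 21.3 in OPC-like and 18.2 in astrocyte-like cells. Tapbp averaged 82.7 CPM in microglia-like and 79.1 in endothelial-like cells, with 37.9 in OPC-like and 32.8 in astrocyte-like cells. Of the 63 pairs of neighbours, 16 passed an adjusted p of 0.05, and the smallest p the test can give with 14 libraries is 0.0001221.

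**Figure D1:**
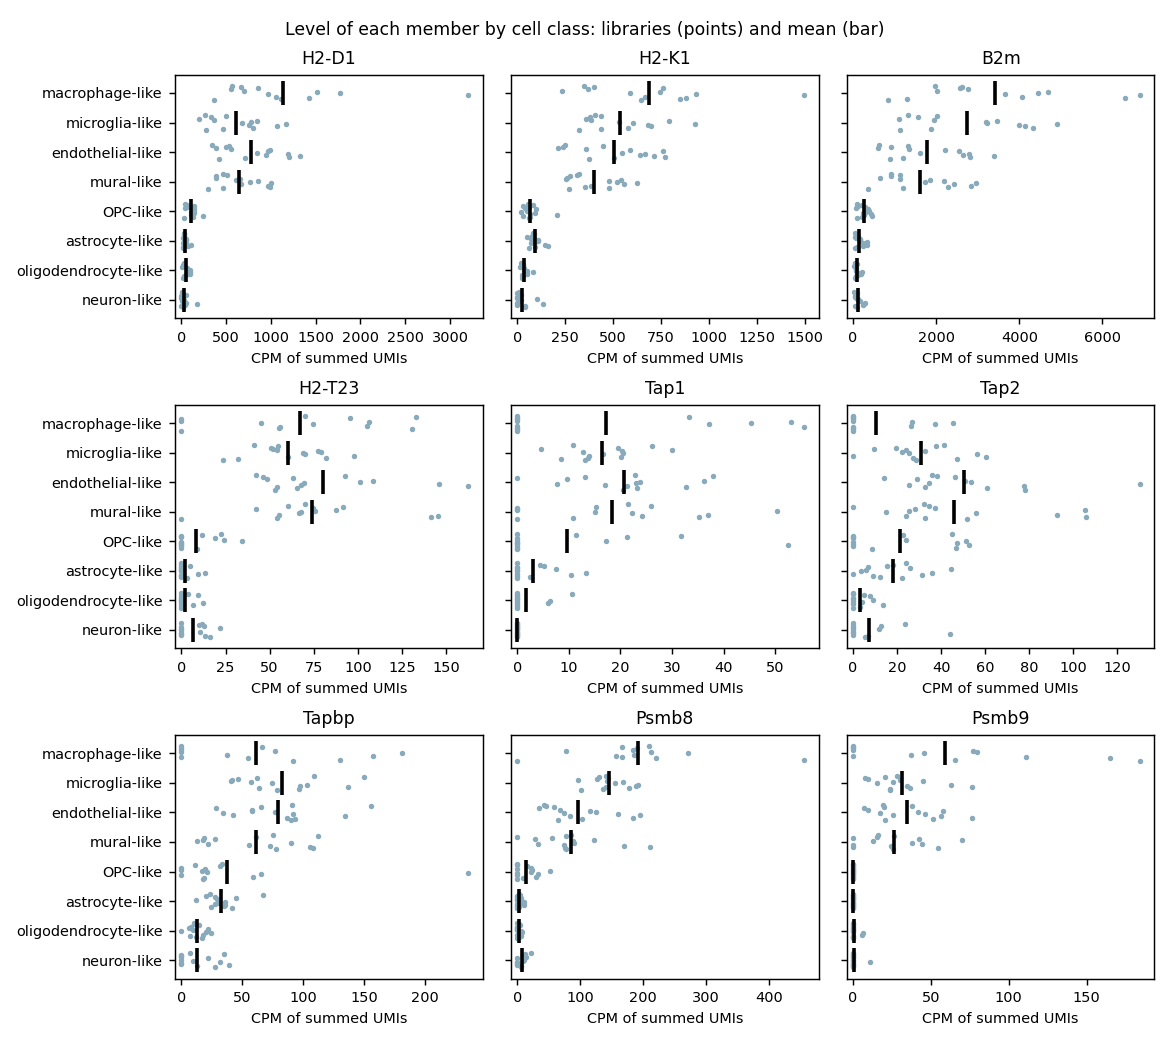
CPM of each of the 9 genes (1 panel per gene) by cell class, with a point for each library and a bar at the mean over libraries. H2-D1, H2-K1, B2m, H2-T23, Psmb8 and Psmb9 are high in 4 classes and low in the others, while Tapbp and Tap2 keep more of their level in OPC-like and astrocyte-like cells.

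RNA free in the droplets adds UMIs to cells that do not express a gene, and it bears on the low levels. The summed microglia markers stood at 1.39% of their microglia-like level in astrocyte-like cells, 1.19% in oligodendrocyte-like, 2.73% in neuron-like and 3.02% in OPC-like cells, and endothelial markers at 0.898 to 2.12% of their own level in those classes. B2m stood at 5.43%, 3.09%, 4.35% and 9.19% of its microglia-like level in the same 4 classes, and what part of this was carried over was not tested. With each cell thinned to 300 UMIs, 47.4% of microglia-like cells held a B2m UMI, 13.8% an H2-D1 UMI and 13.4% an H2-K1 UMI (65.0%, 24.4% and 23.6% before thinning, with 6515 of 6873 cells deep enough). In endothelial-like cells the thinned shares were 33.9% for B2m, 16.9% for H2-D1 and 12.2% for H2-K1 (51.4%, 31.6% and 24.2% before). The B2m share was 1.94% in neuron-like and 2.52% in oligodendrocyte-like cells after thinning, and 6.08% and 4.86% before. The median depth was 502 UMIs in microglia-like, 532 in endothelial-like, 571 in oligodendrocyte-like and 708.5 in neuron-like cells.

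In microglia-like cells, the contrast on which the genes were selected, H2-D1 measured 266, 336 and 202 CPM in WT males (replicates 1, 2 and 4) and 849, 780.5 and 1172 CPM in THY-Tau22 males (replicates 1 to 3). It measured 753, 1067 and 279.8 CPM in WT females and 498, 360.1, 673, 799 and 471 CPM in THY-Tau22 females. The male groups did not overlap. WT females spanned both male ranges, with replicate 3 within that of the WT males. THY-Tau22 females all lay above the WT males and reached into the THY-Tau22 male range. The library deposited under opposite male genotypes held 551 CPM under its WT label and 528 under its THY-Tau22 label, between the male groups. The fitted log2 fold change of H2-D1 in males was 1.69 ± 0.32 (SE), a 3.22-fold higher level, with group means of 268 ± 67.2 and 934 ± 209 CPM (SD, n = 3 each).

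B2m in microglia-like cells measured 1333.5, 1551 and 1112 CPM in WT males and 3462, 3198 and 4912.5 CPM in THY-Tau22 males. In females it measured 4003, 4144 and 1122 CPM in WT and 2010.3, 1944, 3228, 4332 and 1866 CPM in THY-Tau22 mice, so that the same WT female stood apart from the other two. The fitted log2 fold change in males was 1.42 ± 0.33. H2-K1 measured 407, 379 and 356 CPM in WT males against 792, 533 and 926 CPM in THY-Tau22 males, with a log2 fold change of 0.86 ± 0.26. Its female values were 683, 697 and 322 CPM in WT and 439.7, 384, 606, 577 and 436 CPM in THY-Tau22 mice. These male groups did not overlap for either gene.

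For the other members in microglia-like cells, the male log2 fold changes were 1.21 ± 0.53 for Psmb9, 0.57 ± 0.38 for H2-T23, 0.37 ± 0.56 for Tap2, 0.17 ± 0.26 for Psmb8 and -0.30 ± 0.39 for Tapbp. Tap1 did not pass the filter on low counts. The rule for calls in the other classes, an adjusted p under 0.05 with a log2 fold change of 0.5 or more in either direction, takes 12 of 5112 genes here (0.235%), and H2-D1 is among them because the selection was made on this value. Of the 8 members tested, 4 were higher at an unadjusted p under 0.05, where 9.74% of all genes were, and 4 had every THY-Tau22 male above every WT male, where 15.6% of all genes did. The median of the 8 log2 fold changes was 0.72, beside -0.01 over all genes tested. Nothing is read from these counts, since the contrast chose the members.

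**Figure D2:**
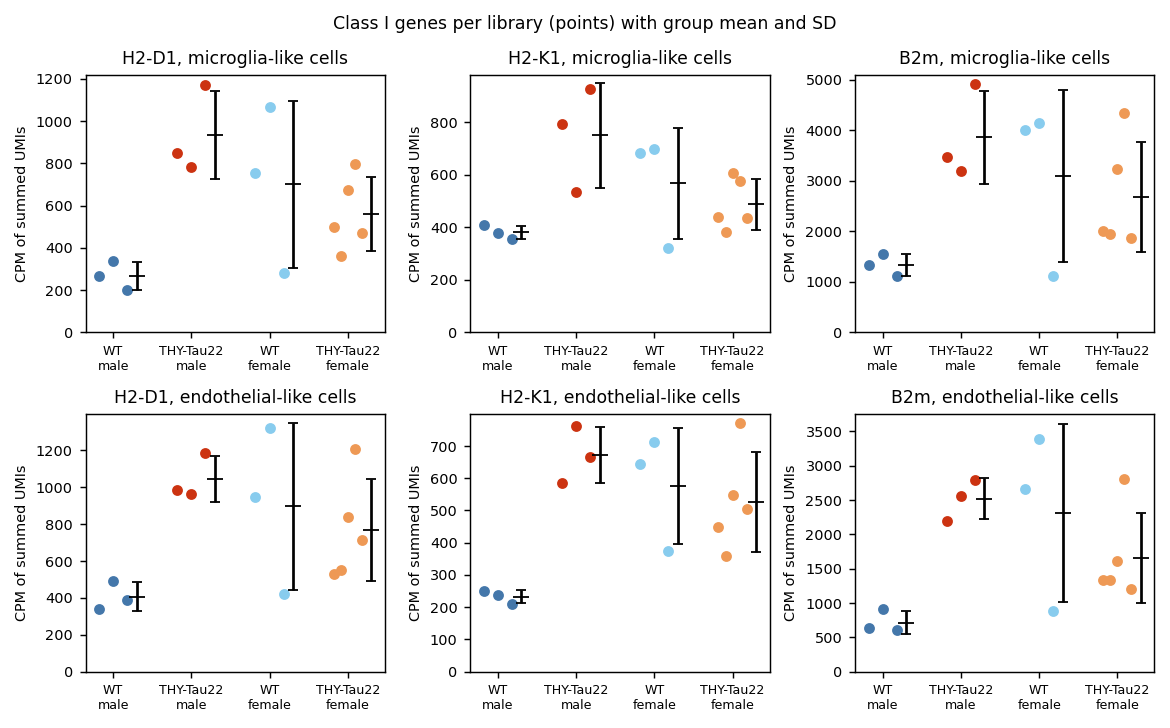
CPM of H2-D1, H2-K1 and B2m in microglia-like and endothelial-like cells, with a point for each library, by group, and the group mean with its SD. In all 6 panels the 3 THY-Tau22 males lie above the 3 WT males, the female groups overlap, and 1 WT female lies below the other WT females.

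Endothelial-like cells, which line the vessels of the cortex, gave the male comparison in cells that the selection did not use. They came from the same libraries, however, and the study had already listed B2m as higher in males in endothelial cells. The p-values below are therefore not independent evidence. B2m measured 634, 909 and 605 CPM in WT males and 2201, 2557 and 2796 CPM in THY-Tau22 males, and the groups did not overlap. Its mean rose from 716 ± 167 to 2518 ± 299 CPM (SD, n = 3 each), a log2 fold change of 1.66 ± 0.33 (edgeR's quasi-likelihood test, adjusted p = 0.0439 over all genes of the class). H2-K1 measured 250.2, 237 and 211 CPM in WT males and 587, 761 and 667 CPM in THY-Tau22 males, again without overlap. Its mean rose from 233 ± 19.8 to 671 ± 87.4 CPM, a log2 fold change of 1.35 ± 0.27 (edgeR, adjusted p = 0.0439). B2m and H2-K1 were the only genes of 3279 tested in this class that were called (0.061%). Both calls depended on single libraries of every group: they were lost in 16 of 27 alternatives, 11 of which left out 1 of the 14 libraries, with adjusted p-values from 0.000307 to 0.528 for B2m and from 0.000374 to 0.528 for H2-K1.

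H2-D1 measured 341, 494 and 387 CPM in the endothelial-like cells of WT males and 985, 963 and 1188 CPM in THY-Tau22 males, and these did not overlap either. Its log2 fold change of 1.21 ± 0.31 did not pass after adjustment (edgeR, adjusted p = 0.141). The other members were lower and less precise. Psmb8 measured 42.2, 59.3 and 35.2 CPM against 116, 125 and 161 CPM, from 5 to 21 UMIs a library, with a log2 fold change of 1.38 ± 0.44 (edgeR, adjusted p = 0.195). H2-T23 measured 42.2, 46.1 and 63.4 CPM against 109, 101 and 146 CPM (1.08 ± 0.41, edgeR adjusted p = 0.220), and Tap2 35.7, 46.1 and 14.1 CPM against 50.7, 53.5 and 130.2 CPM (1.04 ± 0.53, edgeR adjusted p = 0.330). Tapbp, by contrast with the rest, had a log2 fold change of 0.02 ± 0.51, with a 95% interval from -1.11 to 1.15. Tap1 and Psmb9 did not pass the filter on low counts. Psmb9 measured 19.5, 19.8 and 7.04 CPM in WT males and 57.9, 41.6 and 46.0 CPM in THY-Tau22 males.

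Of the 7 members tested in endothelial-like cells, 5 were higher in THY-Tau22 males at an unadjusted p under 0.05, beside 9.18% of all genes, and 6 had every THY-Tau22 male above every WT male, beside 18.7% of all genes. Their median log2 fold change was 1.21, beside -0.00 over all genes tested. The same 14 libraries gave both classes, so these values repeat the comparison in other cells of the same mice, not in other mice. In the library kept out of the comparisons, endothelial-like B2m measured 1079 CPM under the WT label and 1039 under the THY-Tau22 label, and H2-K1 405 and 377 CPM, between the male groups. With all 16 libraries as labelled, neither gene was called.

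The share of cells with a UMI moved with the summed level. Thinned to 300 UMIs, 18.7 ± 2.35% of endothelial-like cells held a B2m UMI in WT males and 45.7 ± 3.42% in THY-Tau22 males (SD, n = 3 each), with 834 of 848 and 560 of 593 cells deep enough (32.2% and 66.7% before thinning). For H2-K1 the thinned shares were 5.03 ± 1.23% and 17.0 ± 3.21%. In microglia-like cells the B2m share was 31.0 ± 5.44% in WT males and 62.9 ± 4.89% in THY-Tau22 males, and the H2-D1 share 7.59 ± 1.98% and 21.9 ± 5.86%, given as a description. The B2m UMIs of endothelial-like cells were spread over cells, the single highest cell holding 1.24% of them.

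At the levels other than microglia-like and endothelial-like cells, no member passed in males by edgeR. In all kept cells together, 0 of 9 members and 0% of 11643 genes were called by edgeR, with 4 members (H2-D1, B2m, Psmb9 and H2-K1) higher at an unadjusted p under 0.05, beside 9.04% of all genes. DESeq2 called 2 members, beside 0.129% of all genes. Every THY-Tau22 male lay above every WT male for 7 of the 9 members, beside 22.4% of all genes. All kept cells include the microglia-like cells on which the genes were selected. The values of this level are therefore descriptions, and nothing is read from its counts. The log2 fold changes were 1.43 ± 0.38 for B2m (edgeR, adjusted p = 0.197), 1.33 ± 0.33 for H2-D1 (adjusted p = 0.196), 1.26 ± 0.41 for Psmb9 (adjusted p = 0.234) and 0.89 ± 0.26 for H2-K1 (adjusted p = 0.228), and they ran from -0.10 for Tapbp to 0.58 for Tap2 in the other 5. In oligodendrocyte-like cells H2-D1 (1.76 ± 0.50, edgeR adjusted p = 0.101) and B2m (1.51 ± 0.46, adjusted p = 0.109) were 2 of 3 members tested with an unadjusted p under 0.05, beside 9.37% of all genes. There 0 were called by edgeR, beside 0.0752% of all genes, and DESeq2 gave none of the 3 an adjusted p, so it could call none. In astrocyte-like cells B2m (1.56 ± 0.49, edgeR adjusted p = 0.154) was 1 of 3 members tested with an unadjusted p under 0.05, beside 9.43% of all genes, while H2-K1 gave 0.10 ± 0.36. In these cells edgeR called 0 members and 0% of all genes. DESeq2 gave an adjusted p there for B2m alone (0.160), which was not called. In neuron-like cells B2m alone could be tested (1.45 ± 0.58, edgeR adjusted p = 0.568), with an unadjusted p under 0.05 as for 4.84% of all genes, and 0 calls by either tool, with 0% of all genes called by edgeR. The part of RNA carried over from microglia and endothelial cells in these differences was not tested.

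**Figure D3:**
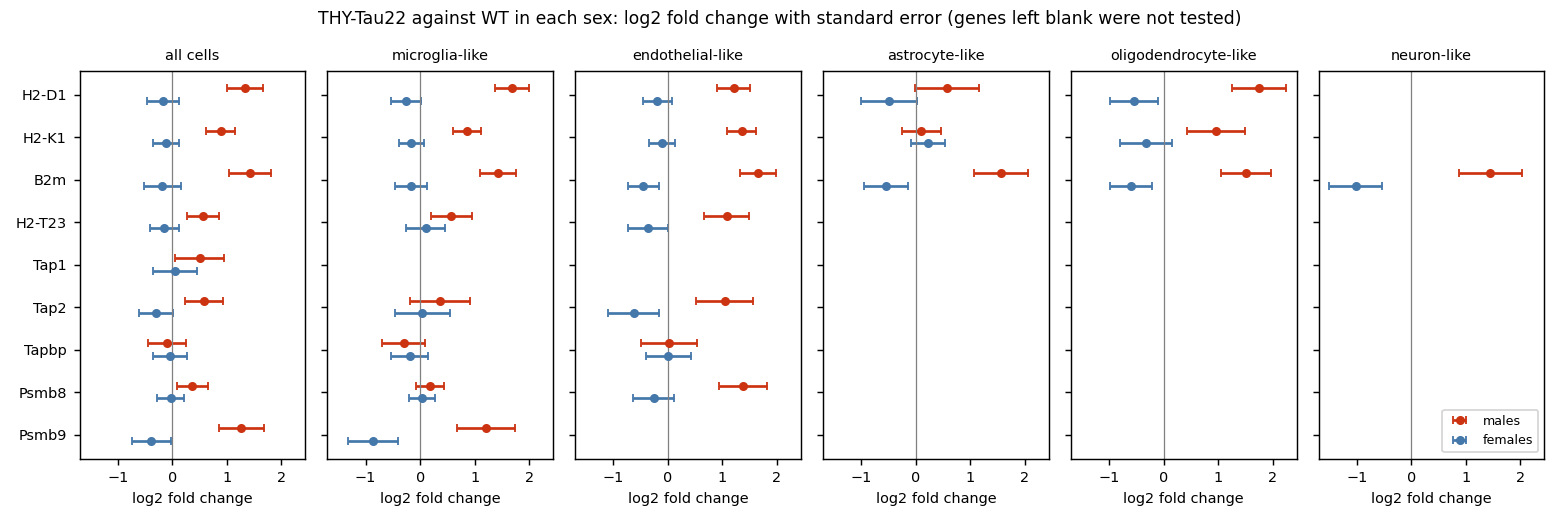
Log2 fold change (THY-Tau22 over WT) with its SE for each gene tested in all cells and in 5 classes, for males and for females. In endothelial-like cells 7 of 7 male estimates lie above 0, with Tapbp at 0.02, and over the 6 levels 25 of 31 female estimates lie below 0. All levels come from the same libraries, and these signs are given without the share over all genes.

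Females were compared in the same way. The 31 fits of members over the 6 levels gave 25 log2 fold changes below 0 and 6 above, from -1.02 to 0.23. The same genes were fitted at several levels of the same libraries, and the share of signs over all genes is not given. Nothing is therefore read from these signs. None of the 31 fits was called by edgeR or by DESeq2, beside 0.00332% of all gene-by-level fits by edgeR. At an unadjusted p under 0.05 edgeR gave 1 member, B2m in neuron-like cells (-1.02 ± 0.49, edgeR adjusted p = 0.997), and DESeq2 gave 0, beside 2.43% of all fits by edgeR. B2m in endothelial-like cells measured 2657, 3396 and 881 CPM in WT females and 1329, 1337, 1613, 2805 and 1207 CPM in THY-Tau22 females, a log2 fold change of -0.45 ± 0.28 with a 95% interval from -1.08 to 0.18. H2-K1 there measured 643, 713 and 373 CPM against 447, 358, 547, 772 and 503 CPM, and H2-D1 948, 1320.3 and 422 CPM against 527, 552, 841, 1207 and 713 CPM. In each case the THY-Tau22 females lay within or near the range of the WT females, whose replicate 3 held less than replicates 1 and 2. In microglia-like cells the female log2 fold changes were -0.26 ± 0.27 for H2-D1, -0.16 ± 0.29 for B2m, -0.16 ± 0.23 for H2-K1 and -0.86 ± 0.46 for Psmb9 (edgeR adjusted p = 1.00 for each).

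The difference between the sexes was tested as the male minus the female log2 fold change. It was 2.11 ± 0.43 for B2m and 1.46 ± 0.36 for H2-K1 in endothelial-like cells (edgeR, adjusted p = 0.0997 for both), and 2.29 ± 0.67 for H2-D1 (adjusted p = 0.0817) and 2.11 ± 0.60 for B2m (adjusted p = 0.0790) in oligodendrocyte-like cells. For H2-D1 in microglia-like cells, part of what the selection used, it was 1.95 ± 0.42. No member was called at any level by edgeR, beside 0.0498% of all fits, and DESeq2 called 5, beside 0.193% of all fits. With an unadjusted p under 0.05, 18 of the 31 member fits were positive, beside 8.56% of all fits. The member fits take in microglia-like cells and all kept cells, which hold the values of the selection. Nothing is read from these counts. The mean of B2m in endothelial-like cells was 716 ± 167 CPM in WT males and 2311 ± 1293 CPM in WT females (SD, n = 3 each), whose replicate 3 lay within the WT male range, and the THY-Tau22 means were 2518 ± 299 and 1658 ± 658 CPM. The WT groups were not compared by a test. Without WT female replicate 3, the interaction was called in 16 of the 31 member fits, and in 9.37% of all fits. This count takes in the same levels.

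Other measures of RNA composition moved with the members. In microglia-like cells mitochondrial mRNAs took 0.371 to 0.550% of UMIs in WT males and 0.886 to 1.14% in THY-Tau22 males, and 0.393 to 1.05% and 0.645 to 0.921% in WT and THY-Tau22 females. mRNAs of ribosomal proteins took 1.40 to 1.78% and 2.35 to 3.13% in the male groups, and 1.44 to 3.21% and 1.68 to 2.81% in the female groups. In endothelial-like cells the mitochondrial share was 0.346 to 0.629% in WT males and 0.825 to 1.17% in THY-Tau22 males. Immediate early genes, which rise when cells are dissociated, took 2.31 to 2.52% in WT males and 2.80 to 2.92% in THY-Tau22 males in microglia-like cells, and 1.06 to 1.58% and 1.86 to 1.99% in endothelial-like cells. In microglia-like cells of females they took 2.23 to 3.50% in WT and 1.94 to 2.68% in THY-Tau22 mice. None of these shares overlapped between the male groups. Across the 14 libraries, after subtraction of group means, H2-D1 in microglia-like cells followed the mitochondrial share with r = 0.956 and rho = 0.890 (exact permutation within groups, adjusted p = 0.00165 and 0.00336 over 9 relations), and r was 0.876 without WT male replicate 4 and WT female replicate 3. Only 4 of 5112 genes had a higher r, and the median over all genes was 0.146. B2m gave r = 0.937 and rho = 0.842 (exact permutation, adjusted p = 0.00165 and 0.00438, r = 0.825 without the same libraries), with 12 genes higher. H2-K1 gave r = 0.861 and rho = 0.807 (exact permutation, adjusted p = 0.00465 and 0.00556, r = 0.671 without them), with 96 genes higher. With the ribosomal protein share, r was 0.946 for H2-D1, 0.914 for B2m and 0.834 for H2-K1 (exact permutation, adjusted p = 0.00104, 0.00104 and 0.00521). The rho values were 0.934, 0.886 and 0.855. Without WT female replicate 2 and THY-Tau22 male replicate 3, r was 0.917, 0.924 and 0.810. With the immediate early share, H2-K1 gave r = 0.808 and rho = 0.728 (exact permutation, adjusted p = 0.0106 and 0.0207), H2-D1 gave r = 0.787 and rho = 0.530 (exact permutation, adjusted p = 0.0483 and 0.130) and B2m gave r = 0.762 and rho = 0.582 (exact permutation, adjusted p = 0.0800 and 0.114). Without WT female replicates 1 and 2 these r were 0.542, 0.514 and 0.373, so the relation rests on those libraries. The members and these measures are shares of the same UMIs, and the part of RNA composition in the genotype difference was not tested.

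In a fit with the median mitochondrial share of a library as a covariate, chosen after seeing the data, 0 members were called in any contrast. The share of all genes called in that fit is not given beside this count, so nothing is read from it about the members. The male log2 fold change of H2-D1 in microglia-like cells was then 0.40 ± 0.26, that of B2m in endothelial-like cells 0.43 ± 0.29, and that of H2-K1 in endothelial-like cells 0.83 ± 0.32 (edgeR, adjusted p = 1.00). With 3 males a group and no overlap in the covariate, genotype and RNA composition cannot be told apart in males. Markers of other cells were checked in the microglia-like class too. The summed macrophage markers measured 23.4 to 41.4 CPM in WT males and 22.2 to 69.1 CPM in THY-Tau22 males, and the T and natural killer cell markers 3.91 to 14.1 and 0 to 24.4 CPM, ranges that overlapped. In endothelial-like cells the 12 T and natural killer cell markers summed to 0 to 7.04 CPM in WT males and 7.24 to 17.8 CPM in THY-Tau22 males. In these groups 11 and 9 of them were at 0, with Cd3e, Cd3d, Cd3g, Trac, Cd8a and Cd8b1 at 0 in both. The class held 142036 to 307789 UMIs a library in WT males and 130527 to 168160 in THY-Tau22 males. These sums thus rest on very few UMIs and do not separate the groups. The 8 macrophage markers there summed to 97.5 to 148 CPM and 143 to 176 CPM (5 and 2 at 0), and the 12 microglia markers to 217 to 380.2 CPM and 297 to 797 CPM, on average 0.959 and 1.56% of their microglia-like level. Erythroid markers reached 2153 CPM in 1 THY-Tau22 male, with at most 28.2 CPM in WT males. The part of these cells in the B2m and H2-K1 differences was not tested.

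**Figure D4:**
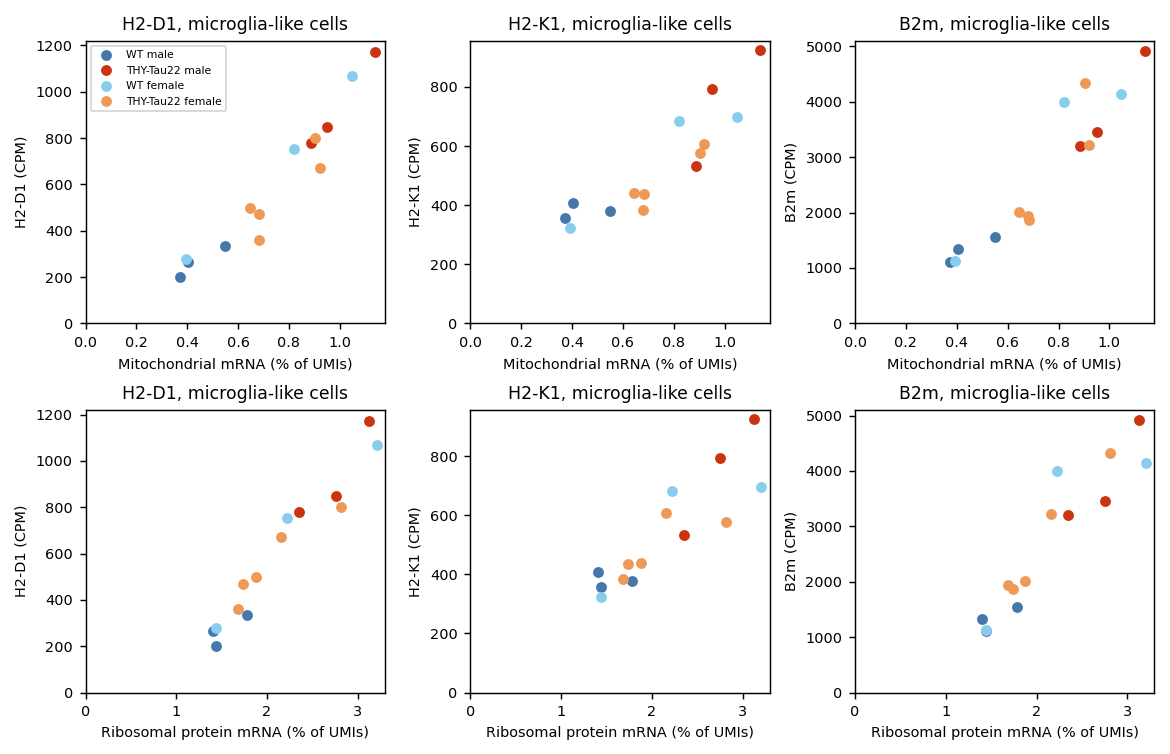
CPM of H2-D1, H2-K1 and B2m in microglia-like cells against the percent of UMIs from mitochondrial mRNAs and from ribosomal protein mRNAs, with a point for each of the 14 libraries by group. The 3 genes are higher in libraries with higher shares, within the female groups as well as between the male ones.

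Within groups the members did not all vary together. In microglia-like cells H2-D1 was correlated over the 14 libraries with B2m (r = 0.954, rho = 0.917, adjusted p = 0.00154 for both), H2-K1 (r = 0.894, adjusted p = 0.00278, rho = 0.864, adjusted p = 0.00232) and Psmb8 (r = 0.789, adjusted p = 0.0350, rho = 0.750, adjusted p = 0.0399), by exact permutation within groups over 8 pairs. Without WT male replicates 4 and 1, the farthest from the median of H2-D1, r was 0.958, 0.922 and 0.790. The choice of cells changed these values: with at least 500 genes per cell the r of H2-D1 with B2m was 0.871, the r of H2-D1 with H2-K1 was 0.759 and the r of H2-D1 with Psmb8 was -0.0541, and at Leiden resolution 1.0 these were 0.968, 0.456 and 0.445. For the rest r was 0.677 for H2-T23 (exact permutation, adjusted p = 0.236), 0.507 for Psmb9, 0.399 for Tapbp, 0.181 for Tap1 and 0.125 for Tap2. The 5 genes that missed the threshold had lower levels than Psmb8, and depth limits what r can show there. All these values share a library and its composition.

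The same gene was also compared between different cells of 1 mouse. After subtraction of group means, B2m in microglia-like cells had r = 0.952 with B2m in endothelial-like cells, 0.956 in mural-like, 0.952 in astrocyte-like and 0.803 in oligodendrocyte-like cells (n = 14). For H2-D1 the values with the same 4 classes were 0.925, 0.826, 0.721 and 0.855, and for H2-K1 they were lower, at 0.675, 0.722, 0.487 and 0.702. The libraries of 1 mouse share depth and free RNA, and these values are descriptions.

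The balance of the 2 classical heavy chains was taken as a ratio within each library. In microglia-like cells the ratio of H2-D1 to H2-K1 UMIs was 0.702 ± 0.166 in WT males, 1.27 ± 0.196 in THY-Tau22 males and, among females, 1.17 ± 0.336 in WT and 1.13 ± 0.163 in THY-Tau22 mice (SD, with 5 mice in the last group and 3 in the others). In endothelial-like cells it was 1.76 ± 0.365, 1.58 ± 0.273, 1.49 ± 0.360 and 1.45 ± 0.161 in the same groups. The WT males thus had the lowest mean ratio in microglia-like cells and the highest mean in endothelial-like cells, where the groups overlapped. The microglial ratio uses the values on which the genes were selected and was not tested.

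The rest of the pathway was followed in lists chosen by role. Among other class I heavy chains, 5 of 12 could be tested in microglia-like cells and 2 were higher in THY-Tau22 males at an unadjusted p under 0.05, H2-Q7 (1.86 ± 0.54, edgeR adjusted p = 0.0939) and H2-Q6 (1.77 ± 0.58, adjusted p = 0.124), near-identical copies whose reads can be split between them. Over all genes tested in microglia-like cells, 9.74% were higher at that threshold, and the counts of this paragraph stand beside that share. Of 7 proteasome partners, Pomp, the assembly chaperone, gave 0.79 ± 0.27 (edgeR, adjusted p = 0.145) and Psmb7, a constitutive subunit, 1.34 ± 0.57 (adjusted p = 0.221). None of the 8 peptide loading partners was higher and Hspa5, a chaperone of the endoplasmic reticulum, gave -0.54 ± 0.25 (edgeR, adjusted p = 0.252). Of the 16 transcription regulators of class I genes, 11 were tested and 0 were higher, with Nfkb1 at -0.67 ± 0.27 (edgeR, adjusted p = 0.198) and Irf1 at 0.44 ± 0.24 (adjusted p = 0.338). Their median log2 fold change was -0.01 in microglia-like and -0.13 in endothelial-like cells.

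Interferon receptors and interferon-induced genes formed another list. In microglia-like cells 4 of 12 tested (of 25 listed) were higher in THY-Tau22 males at an unadjusted p under 0.05, beside 9.74% of all genes. Their list had a median log2 fold change of 0.46 there. In endothelial-like cells 6 of 14 were higher, beside 9.18% of all genes, with a median of 0.75. Lgals3bp gave 1.26 ± 0.41, Bst2 1.01 ± 0.34 and Ifitm3 2.47 ± 0.83 in microglia-like cells (edgeR, adjusted p = 0.127, 0.131 and 0.131). No gene of the lists named so far was called in males in either class by edgeR or DESeq2. Of the class II genes, which present peptides to CD4 T cells, 3 of 7 were tested in microglia-like cells and Cd74, the invariant chain, was called (3.65 ± 0.63, edgeR adjusted p = 0.0137), from 4.69 to 15.6 CPM in WT males to 73.1 to 292 CPM in THY-Tau22 males, while DESeq2 gave it no adjusted p. H2-DMa, which edits the peptides on class II molecules, gave 1.41 ± 0.42 (adjusted p = 0.104). Among 8 receptors for class I molecules, Lilra5 alone could be tested (-0.34 ± 0.54). Of 10 immediate early genes, Ier2 was higher at an unadjusted p under 0.05 (0.89 ± 0.26, edgeR adjusted p = 0.0939, called by DESeq2), with a list median of 0.28. In females 0 genes of these lists were called by edgeR or DESeq2 in either class, and at an unadjusted p under 0.05 edgeR gave 0 higher and 4 lower, 3 immediate early genes and 1 of the interferon list.

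By the level over 14 libraries and 6 classes (84 values of log2(CPM + 10)), the member most like H2-D1 was B2m (r = 0.933), the highest of 10556 genes, followed among members by H2-K1 (0.867), Psmb9 (0.844) and Psmb8 (0.844), and then by H2-T23 (0.769), Tap1 (0.728), Tapbp (0.643) and Tap2 (0.615). The 5 other genes most like H2-D1 were Klf2 (0.921), Dusp1 (0.889), Srgn (0.889), Ier2 (0.888) and Klf6 (0.884), of which Dusp1 and Ier2 are immediate early genes. These values are given without a test, since classes of 1 library are not independent.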

How the data were processed

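Cortical cells of 16 mice were profiled by Drop-seq on a NextSeq 500, with reads of 60 bases for the transcripts and mm10 named in the submitters' processing notes. The authors used the standard Drop-seq computational pipeline, whose aligner, counter and versions are not given in the sources used here. The deposited values are UMI counts per gene and cell barcode, which the authors did not normalize. The 9 genes, the other gene lists and the tests were chosen with earlier results of these data known. The members are named at every level, and from each list at most 3 genes, taken from those of smallest p in microglia-like cells. Likeness to H2-D1 names the 5 genes of highest r.

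Barcodes with 200 to 7000 genes were clustered in Python 3.11.15 with scanpy 1.11.5 and leidenalg 0.10.2 (2500 variable genes, 19 principal components, 20 neighbours, resolution 0.5). Clusters were called X-like from marker lists. The rule that at least 2 markers be among the 10 leading genes was set after the clusters had been seen. The class names are thus not the study's own. Scrublet marked 1603 of 28530 cells (5.62%) as doublets, which were kept in the main fits. When cells were named singly by their markers, 21.5% of the mural-like and 20.5% of the macrophage-like cells kept their name. The clusters left 1683 cells unnamed. At Leiden resolution 1.0, 52.9% of the microglia-like cells kept that name. The microglia-like class then averaged 460 CPM of H2-D1 and 412 CPM of H2-K1, against 608 and 539 CPM in the main clustering.

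UMIs were summed per library and class (at least 10 cells), scaled by edgeR's TMM factors and, after filterByExpr, tested by the quasi-likelihood method of edgeR 4.0.16 (R 4.3.3), with 1 mean for each of 4 groups. Levels were all cells and 5 classes. DESeq2 1.42.0 was an alternative, and it gave some fits no adjusted p, which it could then not call. The p-values were adjusted by the Benjamini-Hochberg method over all genes of a level, and a gene was called at an adjusted p under 0.05 with a log2 fold change of 0.5 or more in either direction. Correlations used log2(CPM + 10). The fits were tested on simulated counts. Replicate numbers are in accession order and only name a library. Precision is limited by 3 males a group.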

Additional observations from a re-analysis of the deposited data

Results flagged for a closer look

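Within the 5 THY-Tau22 females, the only group large enough for the test of a single far library, 18 sets of values were examined (each gene in microglia-like and in endothelial-like cells), and 2 had a library whose gap to its neighbour was above 0.71 of the range. Chance gives about 1 in 20 such sets. B2m in endothelial-like cells measured 2805 CPM in replicate 4, against 1613 CPM in the next library, with a gap of 0.746 of the range. Tap2 in endothelial-like cells measured 60.6 CPM in replicate 5, against 38.0 CPM in the next, with a gap of 0.717 of the range.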

How the results depend on the processing

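Over the levels other than microglia-like cells, 2 member fits were called in males (B2m and H2-K1 in endothelial-like cells). The count takes in the level of all kept cells, which holds the microglia-like cells, so it is not free of the selection. This count was 5 with DESeq2 or with no filter on low counts, 8 without the MB22 libraries, and 0 with total UMIs and no factor, with all 16 libraries as labelled, with the shared library kept as a THY-Tau22 male, with at least 500 genes per cell, with classes by marker share and with the mitochondrial covariate. It was 2 with the shared library kept as a WT male. The 5 calls of DESeq2 included B2m and H2-D1 in all kept cells. Leaving out 1 library gave 0 to 8, with 4 without WT female replicate 2, 8 without WT female replicate 3, 2 without THY-Tau22 female replicate 4 and 0 without any 1 of the other 11. The count over all 6 levels, which takes in the contrast that chose the members and supports nothing, was 3, and 8 with DESeq2, 1 with total UMIs, 7 with no filter, 11 without the MB22 libraries, 4 with the shared library as a WT male, 0 with all 16 as labelled, with that library as a THY-Tau22 male or with the covariate, and 0 to 11 leaving out 1 library. Among all gene-by-level fits, 0.0565% were called in males, and 0.475% with DESeq2, 0.371% with no filter, 1.60% without the MB22 libraries and 1.67% without WT female replicate 3. The male log2 fold change of B2m in endothelial-like cells ranged from 1.27 to 1.87 over 27 alternatives other than the covariate, that of H2-K1 there from 0.96 to 1.57, and that of H2-D1 in microglia-like cells from 1.20 to 2.05. In females the count stayed at 0 under every alternative run. For the interaction it was 0, and 5 with DESeq2, 6 with no filter, 12 without the MB22 libraries (6.30% of all fits), 1 with at least 500 genes per cell, and 0 to 16 leaving out 1 library (4 without THY-Tau22 female replicate 4, 16 without WT female replicate 3). The count for the interaction also takes in microglia-like cells and all kept cells, and nothing is read from it. Neighbours in the order of classes passed in 16 pairs, and in 12 to 16 with 1 library left out. The correlations with H2-D1 passed for 3 members, for 1 with at least 500 genes per cell, where the r of H2-D1 with Psmb8 reversed to -0.0541, for 1 at Leiden resolution 1.0, and for 2 to 3 with 1 library left out. The cause of these changes was not tested. The covariate and the count over the levels other than microglia-like cells were added after seeing the data. Of 2822 single values under alternatives, 2577 kept direction and side of the threshold, 80 came to pass it, 41 no longer passed, 120 fold changes not called in either fit changed sign, 3 other values moved and 1 reversed. No paired analysis was possible because replicate numbers were given in accession order. Depth limits Tap1, Tap2, Psmb9 and H2-T23, with few UMIs per library.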
